A study of Mus musculus with 2 samples.

Results

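Myeloid C-type lectin receptors are membrane proteins of macrophages, dendritic cells and neutrophils that bind sugars and lipids of microbes or products of damaged cells. They were followed here as the 9 genes Clec4a1, Clec4a2, Clec4a3, Clec4d, Clec4e, Clec4n, Clec5a, Clec7a and Clec12a, found by gene symbol among the 54532 genes of the deposited table. Every symbol matched exactly 1 gene, and all 9 reached the minimum for a measured gene, a mean of 10 counts per library. The libraries came from RAW264.7, a macrophage-like line from a mouse tumour, exposed to lipopolysaccharide (LPS, a bacterial outer membrane component) at 100 ng/ml for 3 h. The library of the genotype labelled RNF138 knockout (KO) held 19032311 counts, against 15573989 counts in the library labelled WT (wild type). They are called throughout by these labels. Each genotype had 1 library, so no difference below has a replicate check and no p-value is computed. The sources used here do not say how the knockout was made or whether its line was 1 clone. No culture without LPS was analysed here.

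The targeted gene went against its label. Rnf138, which encodes a RING-type ubiquitin ligase, had 4764 counts in the library labelled KO and 602 in the library labelled WT, a ratio of 6.55 (6.01 to 7.14). Gene-level counts cannot tell an edited exon from an intact exon, so every direction below rests on the labels. Were the labels exchanged, every direction would reverse, and whether they are was not tested. Intervals are exact, at 95%, and cover counting error only, and since PCR reads without molecular identifiers are not independent molecules, even that error may be larger. Of 15 macrophage markers 11 were measured, among them Cd68 with 8031 and 5446 counts and Csf1r with 10467 and 8437 counts in the libraries labelled KO and WT, while Cd163 and Marco were at 0 in both. The 10 T, B and natural killer cell markers summed to 9 and 6 counts in the libraries labelled KO and WT. The 9 fibroblast and epithelial markers summed to 11 and 9 counts in the same order.

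Most of the receptors fall into activating and inhibitory types, while Clec4a1 and Clec4a3 are assigned to neither here. Activating receptors recruit the kinase SYK, either through a partner protein that carries an ITAM (an activation motif with paired tyrosines), namely the Fc receptor gamma chain (Fcer1g) or DAP12 (Tyrobp), or through a tyrosine motif of their own. SYK then signals through CARD9, BCL10 and MALT1 to NF-kappaB. Inhibitory receptors carry an ITIM, a tyrosine motif that recruits the phosphatases SHP-1 (Ptpn6) and SHP-2 (Ptpn11). In macrophages some of these receptors are present at rest, and others, Clec4e above all, are induced by Toll-like receptor signals. All 9 genes lie on chromosome 6 (GRCm38). Clec4a1, Clec4a3, Clec4a2, Clec4n, Clec4d and Clec4e stand in that order within 368 kb, from 122921848 to 123289870, Clec12a (129342691 to 129365303) and Clec7a (129461591 to 129472779) are 96.3 kb apart, and Clec5a (40574894 to 40585821) lies alone.

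No receptor gene passed a 2-fold size rule between the libraries, while the 4 most abundant receptors all had ratios above 1. To pass, a measured gene needed TMM-scaled counts (trimmed mean of M-values) that differed 2-fold or more in either direction, with an interval that left out 1. Of the 9 receptors, 0 were higher and 0 were lower by this rule, against 6.54% and 3.62% of the 12668 measured genes. At a 1.5-fold limit 3 receptors were higher in the library labelled KO (Clec5a, Clec4d and Clec4a1) and 1 was lower (Clec4a2), against 12.9% and 8.06% of measured genes. When the interval alone had to exclude 1, whatever the size, 5 were higher and 1 was lower, against 31.5% and 28.1%. The 4 receptors with a mean count over 1000, Clec4e, Clec5a, Clec4d and Clec12a, were all among the higher ones, where 37.8% of the 4079 genes at that abundance were higher and 40.9% lower on the same terms. That grouping by abundance was chosen after the values were seen. The median log2 ratio, KO over WT by label, was 0.49 over the 9 receptors, against 0.02 over all measured genes.

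**Figure D1:**
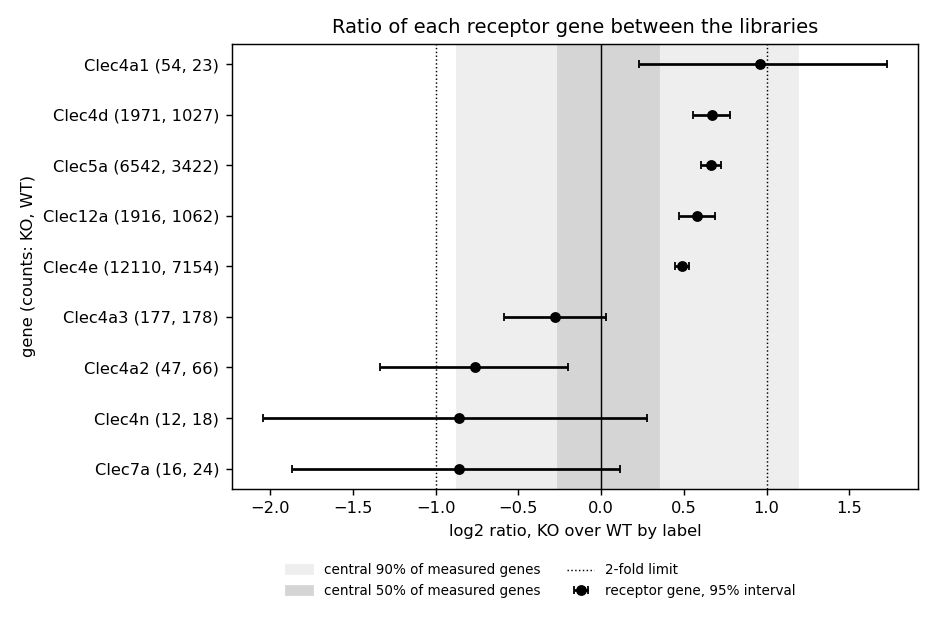
Ratio of each receptor gene, as the log2 of plain scaled counts in the library labelled KO over the library labelled WT (x axis), with genes ordered by ratio (y axis, counts in brackets). Bars are exact 95% intervals of counting error, grey bands hold the central 50% and 90% of 12668 measured genes, and dotted lines mark 2-fold; 5 genes lie right of 0 and 4 lie left, and no gene's point passes a dotted line.

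Among the activating receptors, Clec4e had the highest level. Clec4e encodes Mincle, which binds the mycobacterial cord factor and pairs with the Fc receptor gamma chain. It had 12110 counts in the library labelled KO and 7154 in the library labelled WT, or 640 CPM (counts per 1000000 of the scaled total) for KO and 457 CPM for WT, a ratio of 1.40 (1.36 to 1.44). Its interval excluded 1. Clec4d encodes MCL, also called Dectin-3, which forms a complex with Mincle and brings it to the cell surface. Clec4d had 1971 counts in the library labelled KO and 1027 in the library labelled WT, 104 CPM for KO and 65.6 CPM for WT, a ratio of 1.59 (1.47 to 1.71). Clec4d and Clec4e are neighbours on opposite strands, 6.52 kb apart. For every Clec4d read there were 6.14 Clec4e reads in the library labelled KO and 6.97 in the library labelled WT, a quotient of 0.88 (0.81 to 0.96) that does not depend on how the libraries are scaled. Both genes of this receptor pair therefore had ratios above 1, with that of Clec4d the larger.

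Clec5a encodes MDL-1, a receptor that signals through DAP12 and is known for binding dengue virus. It had 6542 counts in the library labelled KO and 3422 in the library labelled WT, 346 CPM for KO and 219 CPM for WT, a ratio of 1.58 (1.52 to 1.65). Clec4d and Clec5a had ratios that agree within counting error, with 0.301 Clec4d reads for each Clec5a read in the library labelled KO and 0.300 in the library labelled WT, a quotient of 1.004 (0.92 to 1.10). The remaining activating receptors had few reads. Clec4n encodes Dectin-2, a receptor for fungal mannans that pairs with the Fc receptor gamma chain, and had 12 counts in the library labelled KO and 18 in the library labelled WT, a ratio of 0.55 (0.24 to 1.21). Clec7a encodes Dectin-1, the beta-glucan receptor with a tyrosine motif of its own, and had 16 and 24 counts in the libraries labelled KO and WT, a ratio of 0.55 (0.27 to 1.08). Neither interval excluded 1, so a difference in these genes was not detectable at this depth. The deposited table gives Clec7a the biotype polymorphic pseudogene, a class for genes intact in some mouse strains and disrupted in others. The Clec4e to Clec4n quotient differed between the libraries, with 1009 Clec4e reads for each Clec4n read in the library labelled KO and 397 in the library labelled WT, a quotient of 2.54 (1.16 to 5.78). The member pairs given here are taken from 10 pairs computed after the values were seen.

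Clec12a, the gene of the ITIM-bearing receptor MICL, which binds uric acid crystals, was the inhibitory receptor with the most reads. It had 1916 counts in the library labelled KO and 1062 in the library labelled WT, 101 CPM for KO and 67.8 CPM for WT, a ratio of 1.49 (1.38 to 1.61). Its ratio lay in the range of the activating receptors Clec4e, Clec4d and Clec5a. Per Clec4e read there were 0.158 Clec12a reads in the library labelled KO and 0.148 in the library labelled WT, a quotient of 1.07 (0.98 to 1.16). The ratios of these 3 activating genes and of this inhibitory gene all lay between 1.40 and 1.59.

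The Clec4a genes encode receptors of the DCIR family, of which Clec4a2 (DCIR1) carries an ITIM. Clec4a2 had 47 counts in the library labelled KO and 66 in the library labelled WT, 2.48 CPM for KO and 4.21 CPM for WT, a level 1.70-fold lower in the library labelled KO (1.15 to 2.52). Clec4a3 (DCIR3), the most abundant of them, had 177 and 178 counts in the libraries labelled KO and WT, 9.35 CPM for KO and 11.4 CPM for WT, with a ratio of 0.82 (0.66 to 1.02). Clec4a1 (DCIR4) went the other way, with 54 counts in the library labelled KO and 23 in the library labelled WT, 2.85 CPM for KO and 1.47 CPM for WT, a ratio of 1.94 (1.17 to 3.32). Its point lay just inside the 2-fold limit, and its interval ran past it. The ratio of Clec4a1 differed from those of Clec4a2 and Clec4a3 beyond counting error. There were 1.15 Clec4a1 reads for each Clec4a2 read in the library labelled KO and 0.348 in the library labelled WT, a quotient of 3.28 (1.71 to 6.42), and the quotient of Clec4a1 to Clec4a3 was 2.36 (1.35 to 4.21). The quotient of Clec4a2 to Clec4a3 was 0.72 (0.46 to 1.12), an interval that did not exclude 1. Clec4a2 was also the receptor gene most like another gene in sequence: 6.83% of the 50-base words in its transcripts also occur in transcripts of other genes, 3.85% in Clec4a4, against at most 0.686% in the other 8 receptors. Clec4a4 had no counts in either library. No exon of a receptor gene overlapped an exon of another gene in GENCODE M21.

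**Figure D2:**
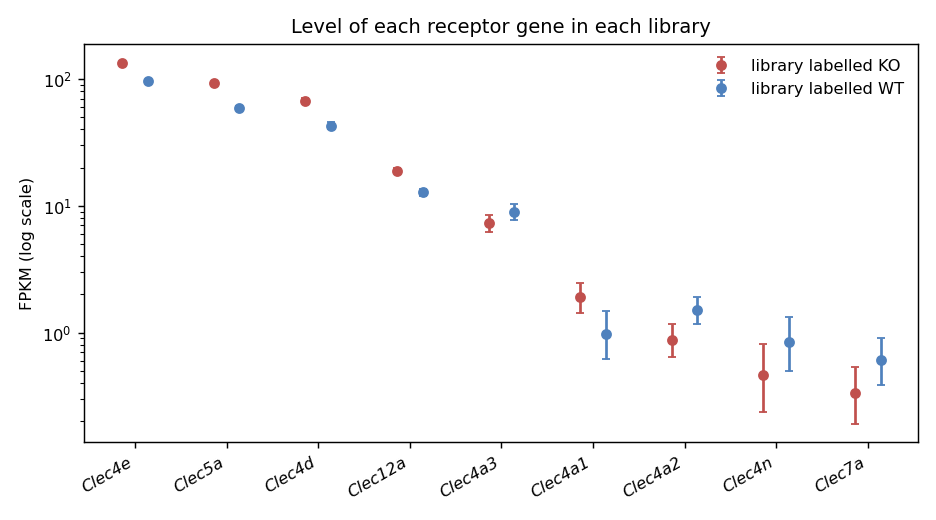
Level of each receptor gene in FPKM on a log scale (y axis) for the 9 genes (x axis), red for the library labelled KO and blue for the library labelled WT, with exact 95% intervals of counting error. Clec4e, Clec5a, Clec4d and Clec12a lie above 10 FPKM and are higher in the library labelled KO, and of the other 5 only Clec4a1 is higher there.

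Set against each other per length, the receptors covered a wide range, in the same order of the leading genes in both libraries. In FPKM (reads per kilobase of gene per 1000000 reads, as the authors computed them), Clec4e stood at 133 in the library labelled KO and 95.7 in the library labelled WT, and Clec5a at 93.1 for KO and 59.2 for WT. Clec4d followed at 67.3 FPKM for KO and 42.7 FPKM for WT, Clec12a at 18.9 FPKM for KO and 12.8 FPKM for WT, and Clec4a3 at 7.29 FPKM for KO and 8.91 FPKM for WT. The 5 levels were apart beyond counting error in each library. Below them Clec4a1 (1.89 FPKM in the library labelled KO, 0.981 in the library labelled WT) and Clec4a2 (0.878 FPKM for KO, 1.499 FPKM for WT) changed places between the libraries, and in the library labelled WT their intervals overlapped. Clec4n (0.462 FPKM for KO, 0.842 FPKM for WT) and Clec7a (0.331 FPKM for KO, 0.605 FPKM for WT) came last, with intervals that overlapped each other, and that of Clec4n also overlapped that of Clec4a2 in both libraries. In the library labelled KO 97.0% of measured genes had a lower FPKM than Clec4e, and in the library labelled WT 95.7%. The deposited lengths of Clec4e and Clec12a, 4965 and 5528 bases, equal the union of all their exons in GENCODE M21. Without transcripts typed there as retained intron, the unions have 2694 and 2748 bases, and the longest coding transcripts have 2518 and 2502 bases. Counted per kilobase of the longest coding transcript, the 9 genes kept their order in each library, with Clec4e at 254 CPM per kilobase in the library labelled KO and 181 in the library labelled WT.

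The receptor pool as a whole was larger in the library labelled KO. The 9 genes summed to 22845 counts (1207 CPM) in that library and 12974 counts (829 CPM) in the library labelled WT, a ratio of 1.46 (1.43 to 1.49). Clec4e alone gave 53.0% of the pool (exact binomial interval 52.4 to 53.7) in the library labelled KO and 55.1% (54.3 to 56.0) in the library labelled WT. Clec5a gave 28.6% (28.1 to 29.2) for KO and 26.4% (25.6 to 27.1) for WT. The 4 abundant genes together held 98.7% of the pool in the library labelled KO and 97.6% in the library labelled WT. These are shares of reads, not corrected for gene length, so they are not shares of transcripts. The 5 others summed to 306 and 309 counts in the libraries labelled KO and WT, a ratio of 0.82 (0.70 to 0.96). Sums over genes hide their differences, since Clec4a1 ran against the other 4. The authors' deposited table gives the 9 receptors log2 fold changes between -0.85 and 0.95, and its adjusted p-values run from 0.736 to 0.983.

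**Figure D3:**
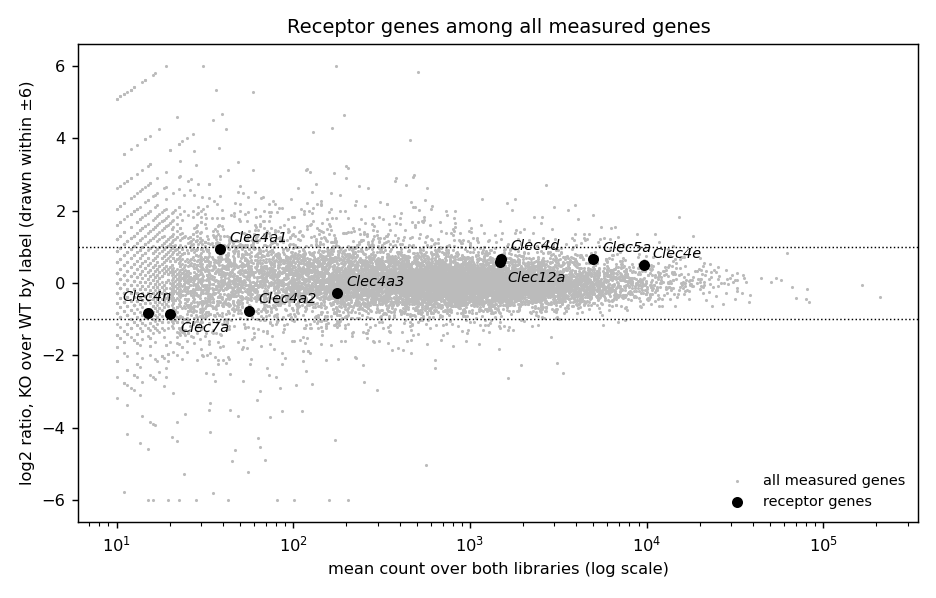
Log2 ratio of KO over WT by label with 0.5 counts added (y axis, values beyond 6 drawn at 6) against the mean count over both libraries (x axis, log scale) for 12668 measured genes in grey and the 9 receptor genes in black. Clec4e, Clec5a, Clec4d and Clec12a sit in the upper part of a narrow cloud and the rarer receptors lie in its broad left part.

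The sequences before the start sites of the 4 abundant genes, which shared a direction, are shown, without that of Clec4a1, which was also higher. They are the 250 bases upstream of the RefSeq start site (GRCm38.p6), each on its gene's own strand: chr6:123289872-123290121 (minus) for Clec4e, chr6:123261857-123262106 (plus) for Clec4d, chr6:40585806-40586055 (minus) for Clec5a and chr6:129349994-129350243 (plus) for Clec12a. Capitals mark matches, on either strand, to 6 motifs: TTNNGNAA (C/EBP-like), TTGCGCAA (the palindromic form of the same site), GAGGAAG (PU.1), TGANTCA (AP-1), GAAANNGAA (ISRE-like) and GGGNNTTNC (kappaB-like).
Clec4e: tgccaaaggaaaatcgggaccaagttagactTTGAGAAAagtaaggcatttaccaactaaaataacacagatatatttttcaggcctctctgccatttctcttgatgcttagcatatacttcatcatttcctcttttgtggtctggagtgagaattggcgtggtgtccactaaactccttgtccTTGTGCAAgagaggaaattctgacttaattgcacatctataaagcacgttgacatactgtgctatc
Clec4d: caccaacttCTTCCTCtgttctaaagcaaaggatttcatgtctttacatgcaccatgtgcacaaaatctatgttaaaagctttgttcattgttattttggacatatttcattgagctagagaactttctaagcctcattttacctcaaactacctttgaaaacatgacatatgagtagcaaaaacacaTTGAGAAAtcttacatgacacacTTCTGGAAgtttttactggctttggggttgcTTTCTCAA
Clec5a: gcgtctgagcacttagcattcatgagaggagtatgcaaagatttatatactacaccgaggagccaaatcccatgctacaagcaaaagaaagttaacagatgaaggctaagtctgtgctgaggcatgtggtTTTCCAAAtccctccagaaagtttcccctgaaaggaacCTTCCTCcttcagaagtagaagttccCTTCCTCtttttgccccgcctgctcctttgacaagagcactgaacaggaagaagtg
Clec12a: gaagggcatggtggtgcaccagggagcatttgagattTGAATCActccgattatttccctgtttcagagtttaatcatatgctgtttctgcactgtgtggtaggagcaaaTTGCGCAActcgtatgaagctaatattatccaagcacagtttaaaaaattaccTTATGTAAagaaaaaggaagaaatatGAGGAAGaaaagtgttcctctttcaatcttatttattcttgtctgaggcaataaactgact

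Windows were found for 8 of the 9 receptor genes, all but Clec4n. The C/EBP-like letters occurred in 5 of these 8 genes (the 4 abundant genes and Clec4a2), and in 36.8% of all 32851 windows. Clec4a1, also higher in the library labelled KO, held none of these letters, and Clec4a2, which held them, was lower there. Clec4e held TTGTGCAA at 66 to 59 bases before its start site, and Clec12a held the palindromic TTGCGCAA, found in 0.164% of all windows, at 140 to 133 bases. The PU.1 letters occurred in Clec4a1, Clec4d, Clec5a and Clec12a, and in 10.6% of all windows, with 2 separate matches in Clec5a. The AP-1 letters occurred in Clec12a alone among the receptors and in 6.75% of windows. The kappaB-like letters occurred in Clec4a3 alone and in 4271 of all windows. No receptor window held the ISRE-like letters, which 7.13% of all windows held. The start sites of Clec12a and Clec4a2 used here lie 7553 and 16262 bases inside these genes as the deposited table gives them. The motifs were chosen after the values were seen, and a match is a description of these letters only.

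Transcription factors that act on myeloid and LPS-induced genes were taken as a list of 15, all measured, of which 2 were higher, 2 were lower and 11 did not pass the size rule (median log2 ratio 0.07). The background for this list and those below is all measured genes, of which 6.54% were higher and 3.62% lower. Their median log2 ratio was 0.02. Cebpe, a factor of granulocyte and macrophage maturation, was 8.54-fold higher in the library labelled KO (interval 5.50 to 13.9), with 227 counts there and 22 in the library labelled WT. Cebpd, a C/EBP gene induced by LPS, was 2.20-fold higher (2.01 to 2.42), with 1623 counts for KO and 609 for WT. Cebpb, the C/EBP gene known to be needed for Clec4e induction in mouse macrophages, had 3559 counts for KO and 3038 for WT, a ratio of 0.97 (0.92 to 1.02). Spi1, which encodes PU.1, had a ratio of 1.34 (1.30 to 1.38). The lower pair were Nfatc1, a calcium-regulated factor that acts downstream of ITAM receptors, at 2.82-fold (2.66 to 2.98), and Runx1, a factor of blood cell development, at 2.36-fold (2.18 to 2.55). Cebpa, the remaining C/EBP gene of the list, had 228 counts for KO and 242 for WT, a ratio of 0.78 (0.65 to 0.94). Over the whole list 8 ratios lay above 1 and 7 below. Cebpb, Spi1 and Cebpa were named after their values were seen.

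The signalling partners of the receptors were also measured. Of 16 genes for activating adaptors and the SYK-CARD9 route, 1 was higher, 1 was lower and 14 did not pass the size rule, with a median log2 ratio of 0.36. Malt1, the protease of the CARD9 complex, was 2.36-fold higher in the library labelled KO (2.27 to 2.46), with 8545 counts there and 2991 in the library labelled WT. Fcer1g, Tyrobp, Syk, Card9 and Bcl10, which did not pass the rule, were named after their values were seen. Fcer1g, the partner of Clec4e and Clec4d, had 3278 counts in the library labelled KO and 1879 in the library labelled WT, a ratio of 1.44 (1.36 to 1.53). Tyrobp, the partner of Clec5a, had 3669 counts for KO and 2034 for WT, a ratio of 1.49 (1.41 to 1.58). Syk had 3276 counts for KO and 1496 for WT, a ratio of 1.81 (1.70 to 1.93), and Card9 had 853 counts for KO and 500 for WT, a ratio of 1.41 (1.26 to 1.58). Bcl10, the other member of the complex with MALT1, had 1651 counts for KO and 1708 for WT, a ratio of 0.80 (0.75 to 0.86). Of 5 genes for inhibitory phosphatases and CBL ligases, none passed the rule (median log2 ratio -0.04). Ptpn6, the gene of SHP-1, had a ratio of 0.97 (0.94 to 1.01), and Inpp5d, the gene of the lipid phosphatase SHIP1, had 3549 counts in the library labelled KO and 5108 in the library labelled WT, 1.74-fold apart (1.67 to 1.82) with the lower level in the library labelled KO.

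**Figure D4:**
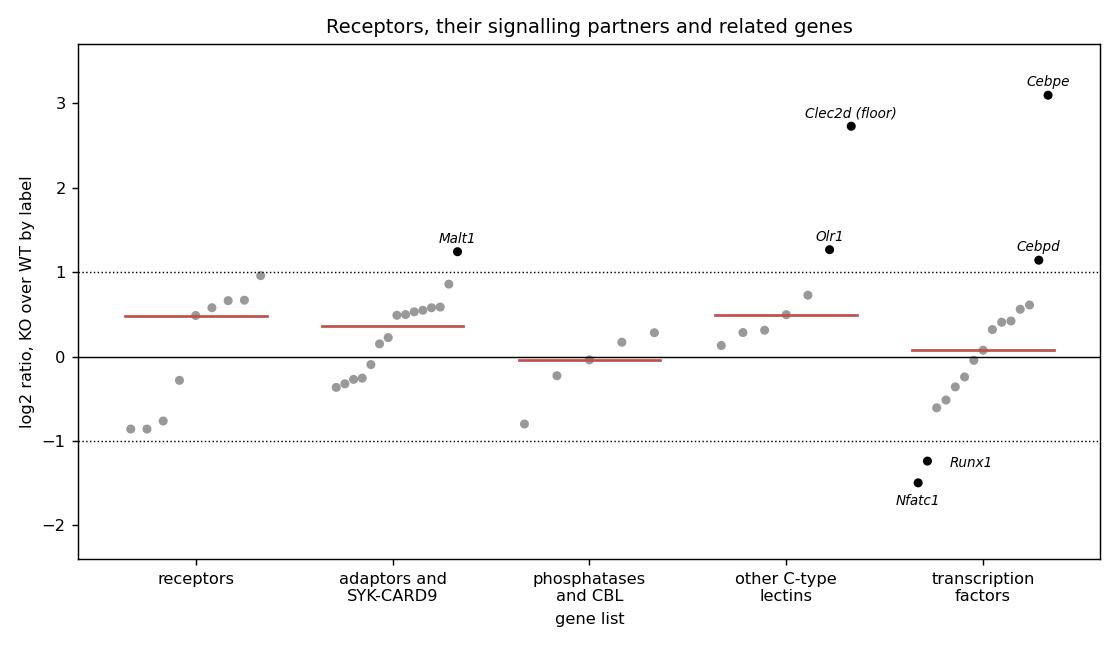
Log2 ratio of plain scaled counts, KO over WT by label (y axis), for measured genes of 5 lists (x axis), each dot 1 gene, black and named where past the size rule and grey where not; the lower gene of the adaptor list is not drawn. Red lines are medians of the whole lists and dotted lines mark 2-fold; none of the 9 receptors is black, and Malt1, Clec2d, Olr1, Cebpd and Cebpe lie above the upper dotted line while Nfatc1 and Runx1 lie below the lower.

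Most other C-type lectin genes had few counts or none. Of 40 such genes 24 had no count in either library, Clec9a and Cd209a among them, and 7 were measured. Of these 7, 2 were higher and 5 did not pass, where 6.54% of all measured genes were higher. The median log2 ratio was 0.50, against 0.02 over all measured genes. Olr1, which encodes the oxidised LDL receptor LOX-1 and lies 12.5 kb from Clec7a, had 122 counts in the library labelled KO and 42 in the library labelled WT, 2.40-fold higher (1.68 to 3.50). Clec2d, which encodes a ligand of natural killer cell receptors, had 24 counts in the library labelled KO and 0 in the library labelled WT, a ratio of 6.62 with the 0 set to the floor of 3 counts, and an exact interval from 4.98 upward. Cd72, the most abundant of the 40, had a ratio of 1.41 (1.35 to 1.47).

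Most genes that surround the receptors on chromosome 6 did not pass the size rule, as with measured genes in general. Of 32 measured genes within 1 Mb of a receptor gene, 2 were higher (Clec2d and Olr1), 1 was lower and 29 did not pass. Among all measured genes 6.54% were higher and 3.62% lower, shares close to those of the neighbours. The median log2 ratio of the 32 was 0.12. The lower gene was C3ar1, the receptor of complement fragment C3a, 65.7 kb from Clec4a1, with 863 counts in the library labelled KO and 1582 in the library labelled WT, 2.22-fold lower (2.04 to 2.41). The 11 measured neighbours of the Clec4 cluster had a median log2 ratio of 0.08, the 8 around Clec5a had 0.19, and the 13 around Clec12a and Clec7a had 0.11.

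Some markers of other myeloid cells passed the size rule and others did not. Of 10 dendritic cell markers 5 were measured, of which 1 was higher, 1 was lower and 3 did not pass, and their list summed to 28.4 CPM in the library labelled KO and 37.6 CPM in the library labelled WT. Itgax, the gene of CD11c, was 4.67-fold higher (3.26 to 6.85), and Siglech was 2.58-fold lower (2.20 to 3.03), while the defining gene Flt3 had 2 counts and 0 counts in the libraries labelled KO and WT. Of 11 neutrophil markers only Csf3r was measured, 2.13-fold lower (1.96 to 2.31), with S100a8, S100a9, Mpo and Mmp8 at 0 in both. Of 7 monocyte markers 3 were measured, and Spn was 2.91-fold higher (2.59 to 3.28). The other two did not pass, Cx3cr1 with 8020 counts for KO and 5574 for WT, a ratio of 1.19 (1.15 to 1.23), and Treml4 with 243 counts for KO and 254 for WT, a ratio of 0.79 (0.66 to 0.95). The monocyte genes Ly6c2 and Ccr2 were at 0 in the library labelled KO and at 1 and 2 counts in the library labelled WT. Of the macrophage markers Msr1 (5.33-fold, 3.23 to 9.31) and Lyz2 (2.55-fold, 2.46 to 2.64) were higher and Adgre1 was 3.58-fold lower (3.02 to 4.26), while 8 did not pass. The part of these markers in the receptor ratios was not tested, and in bulk RNA fewer cells with a transcript and less transcript per cell cannot be told apart.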

How the data were processed

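RNA was sequenced from RAW264.7 cells given LPS, with 1 library for the genotype label RNF138 knockout (KO) and 1 for WT. The authors deposited raw read counts per gene. The submitters' processing notes list the build GRCm38 (mm10) and the tools featureCounts 1.5.0-p3, HISAT2 2.0.5 and CASAVA 1.8, without roles. The sources used here give no strand setting, annotation release or filter. FPKM were made by the authors from counts, gene length and a library total. A further deposited signal, counts scaled to a common library size by the authors, was not used. The log2 fold changes and p-values in the authors' deposited table were copied as they stand, and the tool and spread behind them are unknown here.

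Counts were scaled with TMM factors (0.995 for KO, 1.01 for WT) from edgeR 4.0.16 in R 4.3.3. With 1 library per group no edgeR or DESeq2 test was run. CPM have exact Poisson intervals, ratios exact Clopper-Pearson intervals conditional on the summed counts, and quotients of gene pairs exact conditional intervals (scipy 1.17.1). At 100 counts a Poisson interval reaches 21.6% above the value and at 10 counts 83.9%. Log2 ratios had 0.5 counts added per library, and a count of 0 was set to 3 for a ratio. The procedure was tested on simulated counts that held Poisson error only. Having no spread between cultures, that test cannot show how often the calls in these libraries would repeat. Gene coordinates, exon overlaps and transcripts came from GENCODE M21 (same starts and ends for all 9 receptors), promoter windows from RefSeq.

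The members and lists were chosen with earlier results of these data known. Named were the members, Rnf138, up to 4 genes of each list past the size rule by largest ratio, or the 2 most abundant where none passed, and neighbours past the rule. The lower gene of the adaptor list counts in its list but is not reported here. Other genes were chosen after their values were seen: the silent or near-silent genes, Cd68 and Csf1r, Fcer1g, Tyrobp, Syk, Card9, Bcl10, Cebpb, Cebpa, Spi1, Cd72, Cx3cr1 and Treml4. Alternatives were other scalings (DESeq2 1.42.0 size factors among them), FPKM, count minimums, fold limits, added counts and protein-coding genes alone.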

Additional observations from a re-analysis of the deposited data

How the results depend on the processing

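The log2 ratio of every receptor gene kept its sign and stayed within its counting interval under the 6 alternatives that recompute it (other scalings, FPKM, 5 counts added). Because all 6 start from the same counts, they were nearly bound to keep the signs, and they are no check on repeatability. The other alternatives change which genes are counted or called, and leave a gene's ratio as it is. Clec4a1 ran between 0.55 and 0.94, Clec4a2 between -0.78 and -0.41, Clec7a between -0.86 and -0.27 and Clec4n between -0.86 and -0.33, the values nearest 0 being on log2 of FPKM plus 1, which shrinks low levels. Those of Clec4e (0.47 to 0.49), Clec5a (0.64 to 0.66), Clec4d (0.65 to 0.67), Clec12a (0.53 to 0.58) and Clec4a3 (-0.30 to -0.26) moved little. Scaling moved the median of all genes by at most 0.017 in log2. A minimum mean count of 100 left no value for Clec4a1, Clec4a2, Clec4n and Clec7a, and protein-coding genes alone left none for Clec7a.

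Counts past the rule moved with its limits, by construction. At 1.5-fold, 3 receptors were higher and 1 lower, with 8 and 5 genes of the 4 partner lists, 5 neighbours higher, and 1634 and 1021 of all genes. At 4-fold, 2 and 0 partner genes, 1 and 0 neighbours, and 218 and 128 of all genes passed. At a minimum of 100, 3 partner genes and 0 neighbours were higher, and 327 and 161 of all genes were higher and lower. With no minimum, 2 neighbours were lower. On log2 of FPKM plus 1, 1 neighbour was higher, and 303 and 138 of all genes were higher and lower. With intervals wholly beyond 2-fold, 1 neighbour was higher, and 353 and 185 of all genes were higher and lower.

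No paired analysis was possible because each group has 1 library, and leaving out a replicate was not run for the same reason. Depth limits Clec4n and Clec7a most, with fewer than 25 counts in each library.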
